A study of Arabidopsis thaliana with 8 samples.

Results

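The genes described here are 10 members of the WUSCHEL-related homeobox (WOX) family of transcription factors: WOX5, WUS, WOX2, WOX4, WOX8, WOX9, WOX11, WOX12, WOX13 and WOX14. They were chosen by family membership, with earlier results of these data known, and make up 10 of the 33201 rows of a gene expression table. Expression was measured by RNA sequencing in cells of Arabidopsis thaliana roots, Col-0 accession, that were protoplasted 5 days after germination and sorted by the fluorescence of WOX5::GFP. This reporter, which by its name is driven by the WOX5 promoter, marks the quiescent center (QC), a small group of rarely dividing cells that keeps the neighboring root stem cells undifferentiated, and both genotypes carried it. Wild type plants gave 4 libraries and pan mutant plants gave 4, and the labels call each a biological replicate. The sources used here give neither the pan allele nor the numbers of plants and sorted cells per library. PAN (PERIANTHIA) is a bZIP transcription factor of the TGA class, and the comparison asks what its loss changes in QC-marker cells. The table gives 1 pooled value per genotype, in FPKM (fragments scaled by transcript length and by the mapped fragments of a library), so no value below has a replicate spread of its own, and a gene is called changed where the authors' q-value is under 0.05.

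WOX proteins bind DNA through a homeodomain, and several of them keep stem cells or founder cells undifferentiated. The family falls into 3 clades. The WUS clade holds WUS, the organizer gene of the shoot apex, WOX5, its counterpart in the root QC, WOX2 of the early embryo and WOX4 of the vascular cambium. The intermediate clade holds WOX8 and WOX9, which act in the embryo, and WOX11 and WOX12, known for setting up founder cells of new roots. WOX13 and WOX14 belong to the ancient clade. WUS-clade proteins recruit corepressors of the TOPLESS family, and WUS and WOX4 work with HAIRY MERISTEM (HAM) proteins. Small secreted CLE peptides, read by receptor kinases, limit WUS at the shoot apex and WOX5 at the root tip.

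WOX5, WOX11 and WOX12 are the members called lower in the pan mutant. The 250 bases before the RefSeq start of each are therefore shown, 5′ to 3′ on the strand of the gene, from the RefSeq genome TAIR10.1. Those starts are 3527280 for WOX5, 892229 for WOX11 and 5884770 for WOX12. For WOX5 and WOX11 they differ from the authors' coordinates given below. Capitals mark ACGT, the core of many bZIP binding sites. The windows are chr3:3527030-3527279 on the plus strand for WOX5, chr3:892230-892479 on the minus strand for WOX11 and chr5:5884771-5885020 on the minus strand for WOX12.
WOX5: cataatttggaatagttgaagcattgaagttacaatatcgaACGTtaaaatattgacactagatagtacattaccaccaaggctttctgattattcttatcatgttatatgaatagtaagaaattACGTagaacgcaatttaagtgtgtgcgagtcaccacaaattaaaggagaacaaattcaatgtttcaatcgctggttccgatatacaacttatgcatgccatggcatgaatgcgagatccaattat
WOX11: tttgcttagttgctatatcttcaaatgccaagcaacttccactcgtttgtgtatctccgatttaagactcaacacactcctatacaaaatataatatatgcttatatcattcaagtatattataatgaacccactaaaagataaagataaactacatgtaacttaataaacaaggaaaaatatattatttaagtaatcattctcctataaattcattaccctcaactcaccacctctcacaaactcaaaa
WOX12: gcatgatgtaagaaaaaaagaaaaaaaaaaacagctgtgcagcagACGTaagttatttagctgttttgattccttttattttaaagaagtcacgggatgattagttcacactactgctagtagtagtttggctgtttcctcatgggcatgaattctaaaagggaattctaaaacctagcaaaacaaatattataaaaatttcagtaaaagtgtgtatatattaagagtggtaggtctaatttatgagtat

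ACGT reads the same on both strands, and it stood at 2 places in the WOX5 window, at 1 in the WOX12 window and at none in the WOX11 window. Of the 10 WOX windows 5 held it, and 44.1% of 27443 protein-coding genes did. TGACG, the core of TGA-class sites, was searched on both strands and was in 0 of the 10 windows, against 18.6% of all genes. The G-box CACGTG, which contains ACGT, was in 0 of the 10, against 6.49%. The auxin response element TGTCTC was in the windows of WOX4 and WOX8 (10.9% of all genes), and the WUS binding element TTAATGG in that of WOX2 (6.99%). These matches describe the letters of 250 bases only.

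WOX5 was the most abundant member in both genotypes and fell most among the tested members. The authors' deposited table gave WOX5 (AT3G11260, chromosome 3, 3527575 to 3528433, TAIR10, plus strand, 2 exons in the longest RefSeq transcript) 205 FPKM in wild type against 8.27 FPKM in the mutant, for a log2 change of -4.63 (24.8-fold lower, q = 0.00116). Its level ranked 689th of all rows in wild type and 10406th in pan. Of the 1537 tested rows with at least 100 FPKM in wild type, 3 had a lower log2 change than WOX5. That class is set by the wild type value alone, where WOX5 is high, so this rank is no test of its change. In bulk samples of sorted cells, fewer cells of a type and less RNA per cell cannot be told apart. Because cells were sorted by a WOX5 reporter, the level of WOX5 is also tied to how the cells were chosen.

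WOX11 and WOX12, the founder-cell genes, were the next most abundant members and also fell. The authors' deposited table gave WOX11 (AT3G03660, chromosome 3, 889509 to 892162, minus strand, 2 exons) 61.0 FPKM in wild type against 5.24 FPKM in the mutant, for a log2 change of -3.54 (11.6-fold lower, q = 0.00116). WOX12 (AT5G17810, chromosome 5, 5880443 to 5884770, minus strand, 4 exons) had 29.3 FPKM in wild type against 5.68 FPKM in the mutant, for a log2 change of -2.37 (5.15-fold lower, q = 0.0140), by the authors' deposited table. WOX11 stood at 2.08 times the level of WOX12 in wild type and at 0.923 times in pan. WOX11 and WOX12 are close relatives, and the longest exact run that their transcripts share is 23 bases. WOX5 shares at most 32 bases, with WOX6. The longest run over all pairs with a member was 38 bases, between WOX2 and PRS.

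**Figure D1:**
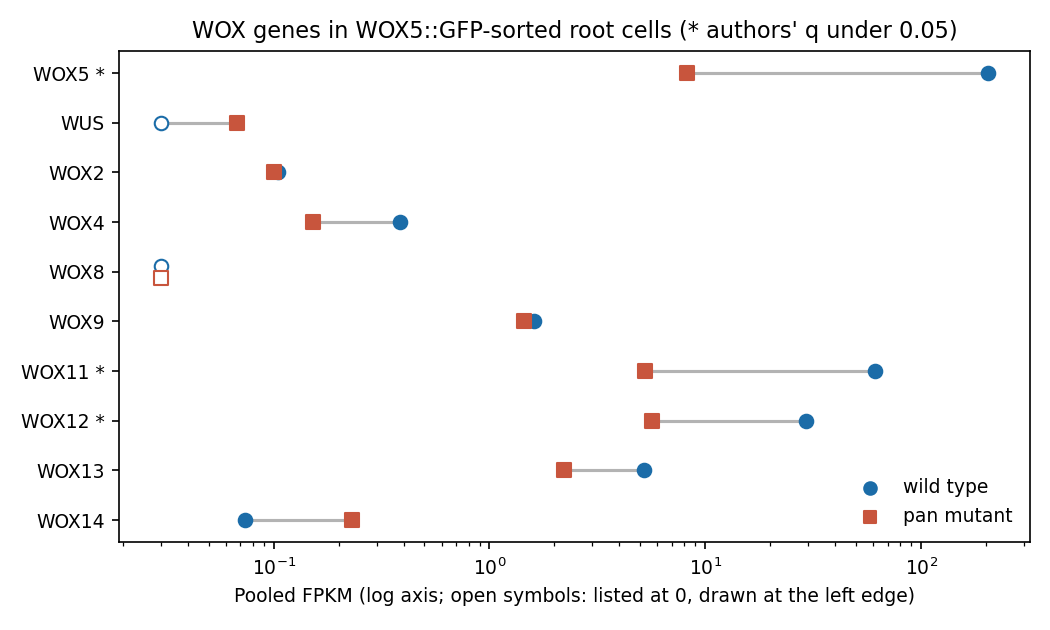
Pooled FPKM on a log axis of each of the 10 WOX genes in wild type (circles) and the pan mutant (squares), with a line joining the 2 values of a gene and no error bars because the table holds pooled values. WOX5, WOX11 and WOX12 run from 205, 61.0 and 29.3 FPKM in wild type to between 5.24 and 8.27 FPKM in pan, and 5 members lie under 1 FPKM in both; open symbols mark values listed at 0.

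WOX13 and WOX9 were tested and not called. WOX13 (AT4G35550, chromosome 4, 16873835 to 16877306), a broadly expressed member, had 5.18 FPKM in wild type against 2.20 FPKM in the mutant, for a log2 change of -1.23 (q = 0.521), by the authors' deposited table. RefSeq places WOX13 at 16875521 to 16877451, while the authors' deposited table gives the longer interval also to AT4G35540 (1.32 and 3.16 FPKM, log2 1.25, q = 0.517). The strand of counting is not stated, so values of both are uncertain. WOX9 (AT2G33880, chromosome 2, 14341430 to 14343778, HB-3 in RefSeq) had 1.62 FPKM in wild type against 1.45 FPKM in the mutant, for a log2 change of -0.16 (q = 0.929), by the authors' deposited table. Relative to the median of all tested rows the change of WOX9 was 0.01, so its direction turned with the scaling.

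The other 5 members were low in both genotypes and were not tested by the authors. WOX4 (AT1G46480, chromosome 1, 17236678 to 17238053) had 0.385 FPKM in wild type against 0.152 FPKM in the mutant, by the authors' deposited table. WOX2 (AT5G59340, chromosome 5, 23933404 to 23934690) had 0.104 and 0.0999 FPKM in wild type and pan, as listed by the authors' deposited table. WOX14 (AT1G20700, chromosome 1, 7182558 to 7184009), known for a role in vascular cells, had 0.0738 and 0.231 FPKM, by the authors' deposited table. The shoot gene WUS (AT2G17950, chromosome 2, 7808871 to 7810795) was listed at 0 in wild type and had 0.0677 FPKM in pan, by the authors' deposited table. WOX8 (AT5G45980, chromosome 5, 18648909 to 18650836) was listed at 0 in both genotypes of the authors' deposited table. The lowest measurable level differed between the genotypes. Taken as the 0.1 percentile of FPKM times transcript length in kilobases, over rows above 0, this floor was 0.0352 in wild type and 0.00349 in pan. Scaled by transcript length it comes to 0.0282 FPKM for WUS in wild type and 0.00280 FPKM in pan. No direction can be read for these 5 genes.

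The order of the members by level was WOX5, WOX11, WOX12, WOX13 and WOX9 in wild type and WOX5, WOX12, WOX11, WOX13 and WOX9 in pan. With no spread per genotype, whether neighbors in this order differ was not tested. Summed FPKM of the 10 members was 303 in wild type and 23.4 in pan, 12.9-fold lower. WOX5 made up 67.7% of that sum in wild type and 35.3% in pan. The shares of WOX11 (20.2% and 22.4%), WOX12 (9.68% and 24.3%), WOX13 (1.71% and 9.43%) and WOX9 (0.534% and 6.18%) were larger in pan than in wild type. By clade, the intermediate genes held 30.4% of the sum in wild type and 52.9% in pan. These shares describe the pooled values and carry no test.

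**Figure D2:**
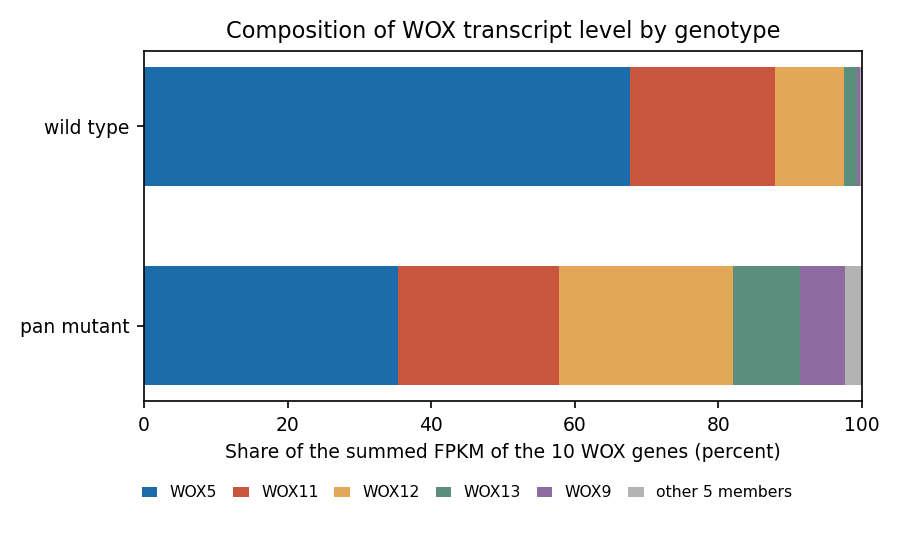
Share, in percent, of the summed FPKM of the 10 WOX genes that each gene held in wild type and in the pan mutant. WOX5 takes 67.7% of the wild type bar and 35.3% of the pan bar, and WOX12 takes 9.68% and 24.3%; the bars are pooled values with no error.

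Of the 10 members the authors tested 5, called 3 lower and called 0 higher. All 5 tested members had a lower value in pan, so 0 had a higher value at an unadjusted p under 0.05 in the authors' Cuffdiff comparison. Over all 19789 tested rows, 17.8% were called, 9.83% lower and 8.01% higher. Among the 7172 tested rows with at least 20 FPKM in wild type, a class that holds WOX5, WOX11 and WOX12, 16.3% were called lower. This class too is set by the wild type value alone, where these genes are high, so it is no level-matched comparison. The median log2 change of the 5 tested members was -2.37, and that of all tested rows with a finite change was -0.17. Relative to the latter, the changes of WOX5, WOX11 and WOX12 were -4.47, -3.37 and -2.20. Of the 19590 tested rows with a finite change, 0.618% had a lower log2 change than WOX5, 2.32% a lower one than WOX11 and 8.39% a lower one than WOX12.

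**Figure D3:**
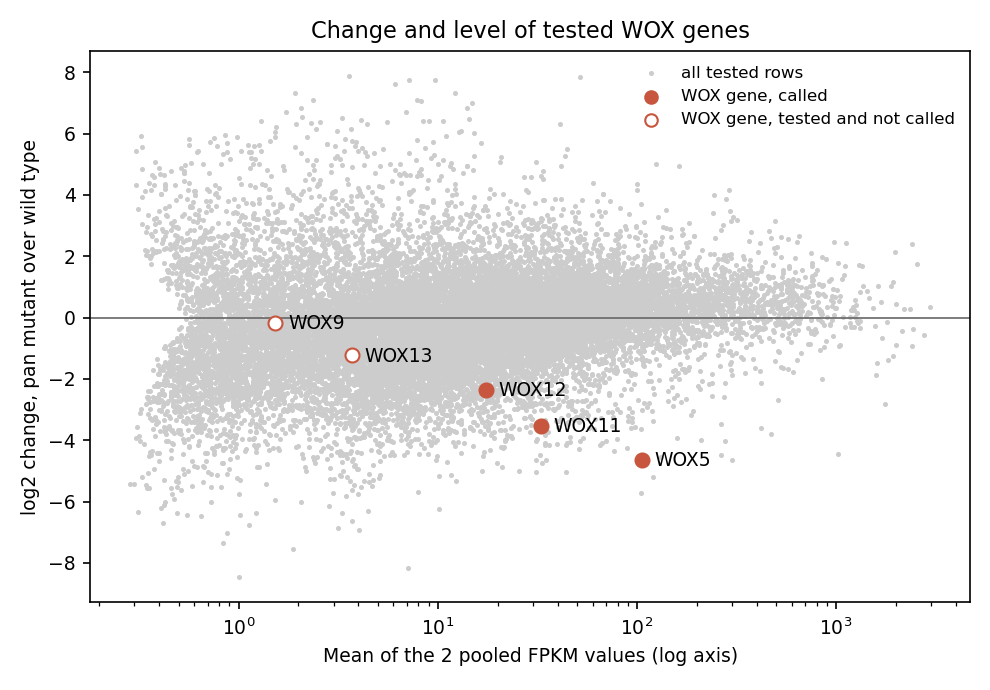
Log2 change of the pan mutant over wild type against the mean of the 2 pooled FPKM values (log axis), for all tested rows with a finite change (gray) and the 5 tested WOX genes. WOX5 (-4.63), WOX11 (-3.54) and WOX12 (-2.37) are filled as called, and lie lower the higher their mean. The wild type value enters both axes, so this order is partly built in. WOX13 (-1.23) and WOX9 (-0.16) are open.

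Of the 20 genes nearest to the 10 members on either side, 9 were tested and 3 called, against 17.8% of all tested rows, and 2 of the 3 lie beside WOX12. MYB56 (BRAVO), a MYB factor of the QC, ends 1111 bases from WOX12 in the table's coordinates, and it fell from 49.8 FPKM to 1.56 FPKM (log2 change -5.00, q = 0.00116), by the authors' deposited table. On the other side of WOX12, AT5G17820 rose from 351 FPKM to 1899 FPKM (log2 change 2.43, q = 0.00116), by the authors' deposited table. HMGB3, next to WOX14, was the third, at 86.5 FPKM and 179 FPKM (log2 1.05, q = 0.0351), by the authors' deposited table. Neither neighbor of WOX5 was called: MEE34, 367 bases away, had 32.2 and 14.7 FPKM (q = 0.0816) and AT3G11250 had 103 and 75.0 FPKM (q = 0.383), as listed by the authors' deposited table. WOX14 lies 475 bases from WOX10, which was listed at 0 in wild type and at 0.0474 FPKM in pan, by the authors' deposited table.

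Markers of cell types moved in both directions. Over all tested rows, 9.83% were called lower and 8.01% higher. The 3 QC markers AGL42, MYB56 and SCR were all called lower, with summed FPKM of 100.4 in wild type and 9.35 in pan. The level of WOX5 was 4.12 times that of MYB56 in wild type and 5.30 times in pan, while against AGL42 the ratio went from 9.86 to 4.85 and against SCR from 6.86 to 1.36. All 6 root cap markers were called lower (sum 646 and 219 FPKM). Of 9 epidermis and root hair markers 6 were called higher and 0 lower (sum 419 and 1493 FPKM; 0 lower at an unadjusted p under 0.05 in the authors' Cuffdiff comparison). Of 5 endodermis markers CASP1, a Casparian strip protein gene, was called higher (sum 128 and 322 FPKM). The other endodermis markers were not called, 1 of them had a lower value in pan, and the median log2 change of the 5 was 1.58. Of 4 tested stele markers WOL, a cytokinin receptor gene, was called higher. The other 3 tested stele markers (APL, VND7 and SUC2) had lower values in pan and were not called, the median log2 change of the 4 was -1.62, and the summed level of all 5 stele markers (33.3 and 72.6 FPKM) is mostly WOL (28.1 and 70.8 FPKM). The highest green tissue marker in wild type was LHCA1, at 1.25 FPKM against 0.284 FPKM in pan. In pan it was LHCB1.3, at 0.413 FPKM against 0.0458 FPKM in wild type, and LHCB2.1 was at 0 in wild type. The part of cell type composition in the falls of WOX5, WOX11 and WOX12 was not tested. By the authors' deposited table the log2 change of PAN itself was -6.24 (q = 0.0386), to 0.265 FPKM in the mutant.

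The rest of the WOX family was low as well. Of the other 5 WOX genes in the table (WOX1, PRS, WOX6, WOX7 and WOX10), only PRS, a lateral organ gene, was tested, at 0.806 and 0.0581 FPKM (log2 -3.79, q = 0.274), by the authors' deposited table. All 5 lay under 1 FPKM in both genotypes.

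Genes linked to WOX factors were followed in 9 lists of 70 genes, of which 52 were tested, 15 called lower and 1 called higher. The share called lower was 28.8% of those tested, against 9.83% of all tested rows, and the median log2 change was -0.78 against -0.17. Many of the 70 are niche genes that earlier work on these data had already described as lower, so the count is not independent of that.

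Among 12 tested regulators of WOX5, 7 were called lower (58.3%, against 9.83% of all tested rows) and 0 higher (against 8.01%). The median log2 change was -2.40, and 9 had a lower value in pan. The rest had a higher value, 1 of them at an unadjusted p under 0.05 in the authors' Cuffdiff comparison. ARF5 (MONOPTEROS), the auxin response factor that acts upstream of root founding in the embryo, fell from 181 FPKM to 15.2 FPKM (log2 change -3.58, q = 0.00116), as listed by the authors' deposited table. The GRAS factor SHR fell from 2.33 FPKM to 0.252 FPKM (log2 change -3.21, q = 0.0489), and its partner SCR fell from 29.9 FPKM to 6.08 FPKM (log2 change -2.29, q = 0.00116), by the authors' deposited table. The PLETHORA factors, which maintain root stem cells, fell together, PLT1 from 170 FPKM to 19.9 FPKM (log2 change -3.09), PLT2 from 81.7 FPKM to 8.95 FPKM (log2 change -3.19) and PLT3 from 123 FPKM to 21.6 FPKM (log2 change -2.51), each with q = 0.00116, by the authors' deposited table. PHB, a class III homeodomain-leucine zipper gene, fell from 7.41 FPKM to 0.890 FPKM (log2 change -3.06, q = 0.00670), as listed by the authors' deposited table. ARF10 and ARF16, repressive auxin response factors that restrict WOX5 in the columella, were not called, with log2 changes of -0.84 (q = 0.243) and 0.63 (q = 0.266), by the authors' deposited table.

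Of 9 tested cofactors of the WUS clade, 1 was called higher and 1 lower, a share close to that of all tested rows (8.01% higher and 9.83% lower), and the median log2 change was 0.37. HAM1, a GRAS factor that works with WUS, rose from 29.9 FPKM to 62.6 FPKM (log2 change 1.07, q = 0.0256), by the authors' deposited table. TPR3, a TOPLESS-related corepressor gene, fell from 16.1 FPKM to 2.84 FPKM (log2 change -2.50, q = 0.00116), as listed by the authors' deposited table. TPL itself had 26.1 FPKM in wild type against 33.7 FPKM in the mutant (log2 0.37, q = 0.534), by the authors' deposited table.

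Of 9 tested CLE peptide and receptor genes, 2 were called lower (22.2%, against 9.83% of all tested rows) and 0 higher (against 8.01%). The median log2 change was -1.15, and 0 were higher at an unadjusted p under 0.05 in the authors' Cuffdiff comparison. CRN, a membrane pseudokinase that signals with CLV2, fell from 22.9 FPKM to 1.72 FPKM (log2 change -3.73, q = 0.00202), by the authors' deposited table. ACR4, a receptor kinase that acts with CLE40 in the root tip, fell from 13.8 FPKM to 3.65 FPKM (log2 change -1.91, q = 0.00896), as listed by the authors' deposited table. CLE40, the peptide gene that restricts WOX5, singled out after its values were seen, had 9.27 and 0.236 FPKM (log2 -5.29) and was not called (q = 0.210), by the authors' deposited table.

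Of 4 reported WOX5 targets, all tested, 2 were called lower and 0 higher, and all 4 had a lower value in pan. Over all tested rows, 9.83% were called lower and 8.01% higher. CYCD3;3, a D-type cyclin gene that WOX5 is known to repress, fell from 26.3 FPKM to 8.60 FPKM (log2 change -1.61, q = 0.0356), by the authors' deposited table. TAA1, an enzyme gene of auxin synthesis, fell from 98.1 FPKM to 38.9 FPKM (log2 change -1.34, q = 0.00719), as listed by the authors' deposited table. Of the 5 tested WUS targets 0 were called, and 0 had an unadjusted p under 0.05 in the authors' Cuffdiff comparison. ARR5, a type-A response regulator of cytokinin signaling, had 9.68 and 17.8 FPKM (log2 0.88, q = 0.253), and KAN2, a GARP factor of leaf polarity, had 2.07 and 3.75 FPKM (log2 0.85, q = 0.540), by the authors' deposited table.

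Partners of the other members were tested only in part. Among 6 tested vascular partners of WOX4 and WOX14, 2 were called lower (33.3%, against 9.83% of all tested rows) and 0 higher (against 8.01%). Of the 6, 3 had a lower value in pan and the rest a higher one, with a median log2 change of -0.94. At an unadjusted p under 0.05 in the authors' Cuffdiff comparison, 0 were higher. ATHB8, a homeodomain-leucine zipper gene of the procambium, fell from 29.8 FPKM to 3.01 FPKM (log2 change -3.31, q = 0.00116) and the receptor kinase gene MOL1 from 8.08 FPKM to 2.13 FPKM (log2 change -1.93, q = 0.0235), by the authors' deposited table. Of the LBD genes that act with WOX11 and WOX12 in founding roots, only LBD16 was tested, at 1.03 and 1.01 FPKM (log2 -0.03, q = 0.988), as listed by the authors' deposited table. Of the 5 tested embryo partners of WOX8 and WOX9, 1 was called lower (20%, against 9.83% of all tested rows) and 0 higher (against 8.01%). Their median log2 change was -0.85, and 0 were higher at an unadjusted p under 0.05 in the authors' Cuffdiff comparison.

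**Figure D4:**
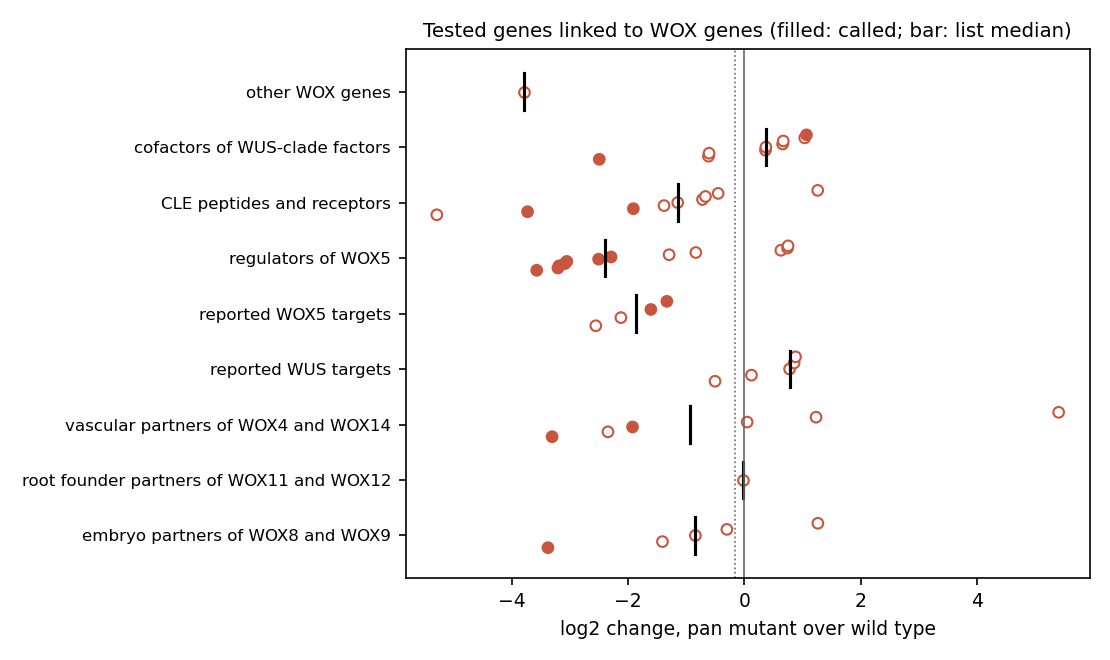
Log2 change of the pan mutant over wild type for each tested gene in 9 lists of genes linked to WOX factors; filled points were called, black bars are list medians, and the dotted line is the median of all tested rows (-0.17). The 12 regulators of WOX5 have a median of -2.40 with 7 called lower, and the 9 cofactors have a median of 0.37 with 1 called in each direction.

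The 5 tested genes nearest to WOX5 in level, over the 2 pooled values as log2(FPKM + 1), were ATCG00620, CYP79B3, AT1G29980, AT3G59765 and RTFL18. CYP79B3, a cytochrome P450 gene of tryptophan metabolism, had 234 FPKM in wild type against 6.43 FPKM in the mutant (q = 0.00116), by the authors' deposited table. ATCG00620 and RTFL18 were not called (q = 0.210 and q = 0.118), by the authors' deposited table. With only 2 pooled values, likeness to WOX5 means a similar level in each genotype and no more.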

How the data were processed

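RNA was sequenced from WOX5::GFP-sorted root cells, 4 wild type and 4 pan mutant libraries. The submitters' processing notes name TAIR10, TopHat2 2.0.13, Cufflinks 2.1.1 and Cuffdiff, with no settings. The authors deposited 1 table in the layout of a Cuffdiff gene result: 1 pooled FPKM per genotype, the log2 of pan over wild type with no pseudocount, a test statistic (a score, not used), and a p-value with its q-value. A Benjamini-Hochberg adjustment of the 19789 tested p-values returned the deposited q-values within 5.25e-07. The smallest p-value, 5e-05, is shared by 853 rows, WOX5 and WOX11 among them. Depth per library is unknown, and cDNA was amplified with a low-input kit per the labels, which adds variation at low levels.

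No fit of single libraries was possible, so the authors' comparison is described, with calls at q under 0.05. Members, lists and markers were chosen with earlier results of these data known. Genes named from a list are up to 6 called members with the largest change or, with none called, the 2 with the largest change; SCR, ARF10, ARF16, TPL and CLE40 fall outside this rule and were added after their values were seen; the values of 1 list member are not reported here. Flanking genes were looked up after the values were seen.

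Names, exons and sequences are from RefSeq TAIR10.1, matched by locus tag (32218 of 33201 rows). Of the matched rows 38.9% start at the same base in both sources, so the coordinates share 1 system. Motifs were searched with Python 3.11.15, and functions were tested on simulated data. Alternatives were pseudocounts, scalings, q thresholds and level filters.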

Additional observations from a re-analysis of the deposited data

How the results depend on the processing

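WOX5, WOX11 and WOX12 kept their direction under every pseudocount and scaling run, an outcome fixed in advance. A pseudocount added to both values cannot turn a direction. The scaling ratios of pan over wild type were small beside these changes, at log2 -0.17 (median ratio) and 0.19 (column totals). A pseudocount of 5 moved their log2 changes to -3.98, -2.69 and -1.68. Scaling to equal column totals gave -4.82, -3.73 and -2.56, and scaling by the median ratio gave the values in the report. At q under 0.01 the called members were 2, without WOX12, and at q under 0.1 or with a mean of at least 1 or 5 FPKM they were 3. Among the other genes linked to WOX factors, the 1 called higher became 0 at q under 0.01, 3 at q under 0.1 and 3 with a mean of at least 5 FPKM, and 1 with a mean of at least 1 FPKM. The number called lower ran from 12 at q under 0.01 to 17 at q under 0.1, against 15. The shares of all tested rows called lower moved as well, to 4.39% at q under 0.01 and 13.5% at q under 0.1. With a mean of at least 1 or 5 FPKM they were 11.2% and 14.2% of the rows kept. The shares called higher at these settings, in the same order, were 4.25%, 10.8%, 8.66% and 12.1%. The order of members by level was the same as percentiles, which rank the same values and so cannot change an order. No paired analysis was possible because the table holds 1 pooled value per genotype; for the same reason no replicate could be left out. Depth per library is unknown, and the estimated floor was 10.1 times higher in wild type.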
